A study of Saccharomyces cerevisiae with 9 samples.

Results

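The mitochondrial NADH dehydrogenases of budding yeast are NDE1 (YMR145C), NDE2 (YDL085W) and NDI1 (YML120C). They make up 3 of the 5449 Saccharomyces cerevisiae genes named by a probe set of the array, and each has 1 probe set. The genes were chosen by name after earlier results of these data, NDE2 among them, had been seen. Their differences between groups are therefore given with standard errors as a description, without p-values, and support nothing by themselves.

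This yeast has no proton-pumping complex I. It oxidises NADH with single-protein dehydrogenases that pass electrons to ubiquinone in the inner mitochondrial membrane and move no protons. Nde1 and Nde2 face the outer side of that membrane and oxidise NADH of the cytosol, while Ndi1 faces the matrix and oxidises the NADH made there by the tricarboxylic acid cycle and related enzymes. From ubiquinone the electrons run through complex III, cytochrome c and complex IV to oxygen.

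Cells were of BY4741, a haploid laboratory strain of mating type a that lacks LEU2, URA3, MET17 and part of HIS3, and all groups share this genotype. They were grown in rich YPD medium at 30 °C to log phase (optical density of 1), washed and placed in distilled water. The unfrozen group was sampled there (0 h). The 2 frozen groups were kept at -30 °C for 24 h or for 48 h and thawed for 10 min in a water bath at 30 °C before RNA extraction, a step the unfrozen cells did not pass through. Each group had 3 single-colour Affymetrix arrays of poly(A) RNA. The labels call these independent triplicates and elsewhere speak of 2 experiments, so the spread between arrays may be partly technical. Signals from whole cultures cannot tell fewer intact cells from less RNA per cell.

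Values below are log2 of the deposited intensity with the S. cerevisiae probe sets of every array brought to a shared median. A level of 2.21, the 95th percentile of fission yeast probe sets, served as the background threshold, and 5396 genes lay above it. Signals of different probe sets are not comparable as levels, so each gene is compared only with itself across arrays. URA3 and MET17 gave signals under that threshold (0.68 and 2.04) and LEU2 lay just above it at 2.62. STE2 and MFA1, genes of mating type a, gave 12.18 and 12.20. Some genes of the opposite mating type were low (MF(ALPHA)1 at 2.42, MF(ALPHA)2 at 4.42), but SAG1 stood at 7.71 and STE3 at 5.83.

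The arrays differed in ways that bear on the values below. Deposited S. cerevisiae signals had medians from 201 to 392 on 7 arrays, and of 679 and 726 in replicate 3 of the 24 h and 48 h groups. The scaled log2 signal of the 17 ribosomal RNA probe sets had medians of 5.45 to 7.02 on the unfrozen arrays and 7.64 to 10.43 on the frozen ones, without overlap (two-sided exact permutation p = 0.1 at 24 h and at 48 h, the lowest value possible with 3 arrays in each of the groups). The 3' probe sets of 7 control genes exceeded their 5' probe sets by a median of 1.27 ± 0.05 (log2, SD, n = 3) in unfrozen, 1.21 ± 0.31 in 24 h and 1.13 ± 0.20 in 48 h arrays, ranges that overlap.

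NDE2, an external enzyme, had deposited intensities of 15.4, 11.3 and 12.5 on the unfrozen arrays, 43.0, 70.1 and 181 after 24 h frozen, and 56.1, 102 and 274 after 48 h. Scaled log2 signals were 3.78, 4.31 and 3.71 in unfrozen replicates 1, 2 and 3. They were 5.64, 6.70 and 6.55 in the 24 h replicates and 6.02, 6.96 and 7.05 in the 48 h replicates. Every frozen array thus lay above every unfrozen one, and within both frozen groups replicate 1 was the lowest. The unfrozen signal was weak, though its mean of 3.93 exceeded 99.7% of the fission yeast probe sets in the same arrays. Of genes of the opposite mating type, MF(ALPHA)2 (4.42), STE3 (5.83) and SAG1 (7.71) averaged higher over all 9 arrays, and MF(ALPHA)1 (2.42) lower. Whether NDE2 was expressed in unfrozen cells was not tested, and the fold values below rest on this weak signal.

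The mean NDE2 signal was higher than in unfrozen cells by 2.36 ± 0.37 on the log2 scale after 24 h (SE, n = 3 arrays per group, 5.15-fold) and by 2.74 ± 0.37 after 48 h (6.70-fold). With 16 added to each intensity before the logarithm, the differences were 1.50, not called at 24 h, and 1.81, still called at 48 h. Ranked by difference, NDE2 held place 20 of the 5396 genes at 24 h and place 15 at 48 h. It was the 1 member of 3 past a limma adjusted p of 0.05 in either comparison. At 24 h this call held in 6 of the 12 settings that left out an array or a replicate number, and at 48 h in 11. Over all genes that call was made upward for 0.797% at 24 h and 2.09% at 48 h, and frozen arrays lay wholly above unfrozen ones for 12.2% and 11.9%. These shares and the NDE2 calls are printed for scale only, because the gene was picked with its rise known. With the ribosomal RNA signal as a covariate the differences were 2.02 and 2.44 and neither passed, while limma called 0 of all genes in both comparisons (139 and 252 at an unadjusted p under 0.05). The ribosomal RNA signal was 5.45, 6.78 and 7.02 in unfrozen replicates 1, 2 and 3, 7.94, 9.68 and 10.43 in the 24 h replicates and 9.78, 7.64 and 9.80 in the 48 h replicates, so it was higher on all frozen arrays, as NDE2 was. Replicate 1 was lowest in both measures at 24 h, while at 48 h replicate 2 was lowest in ribosomal RNA and replicate 1 in NDE2. The part of ribosomal RNA in the NDE2 difference was not tested further.

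**Figure D1:**
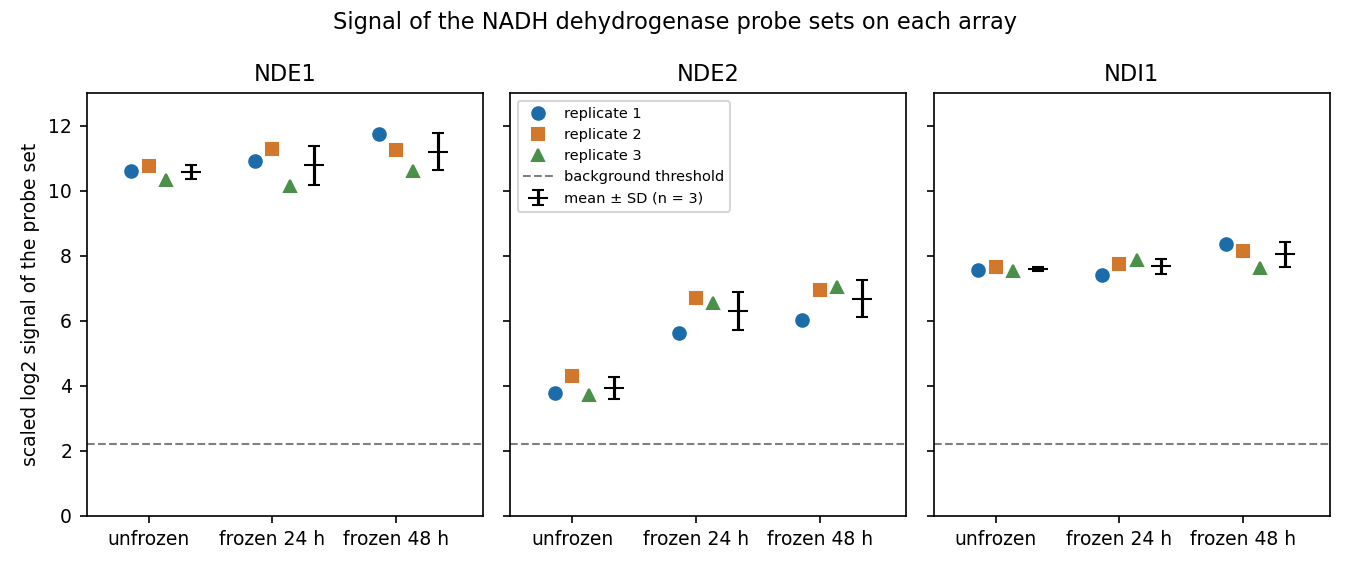
Scaled log2 signal of the NDE1, NDE2 and NDI1 probe sets (y axis) on each of 9 arrays by group (x axis), with marker shape and colour for the replicate number, black bars for the group mean ± SD (n = 3) and a dashed line at the background threshold of 2.21. NDE2 lies between 5.64 and 7.05 on frozen arrays and at or under 4.31 on unfrozen ones, whereas for NDE1 and NDI1 the groups overlap.

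NDE1, the other external enzyme, did not separate the groups. Its scaled log2 signals were 10.62, 10.77 and 10.35 in unfrozen replicates 1, 2 and 3. They were 10.93, 11.29 and 10.14 after 24 h and 11.75, 11.26 and 10.61 after 48 h. Both frozen groups reached above the unfrozen range and both were lowest in replicate 3, where the 24 h value fell under all unfrozen values. In deposited intensity, replicate 3 held the highest NDE1 value of each frozen group, 2174 and 3221, on the 2 brightest arrays of the study.

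The NDE1 difference from unfrozen was 0.20 ± 0.34 at 24 h and 0.63 ± 0.34 at 48 h (log2, SE, n = 3 per group), and it was called in neither. At 24 h its sign turned to -0.12 with scaling on all probe sets of the array, which moved the median of all genes to -0.34. Relative to the median of all genes NDE1 stood at 0.22 under both scalings, a value fixed in advance because each scaling shifts all genes of an array alike. The 48 h difference was 0.29 with scaling on all probe sets and 0.36 without frozen 48 h replicate 1, in neither case called. Without frozen 48 h replicate 3 it was 0.93, and it was called only when frozen 24 h replicate 3 was left out as well.

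NDI1, the internal enzyme, had the tightest unfrozen values of the members, 7.56, 7.67 and 7.55 in replicates 1, 2 and 3. The 24 h signals were 7.41, 7.76 and 7.86, on both sides of the unfrozen ones. The 48 h signals were 8.35, 8.16 and 7.62, with replicates 1 and 2 above all unfrozen arrays and replicate 3 within their range. The differences were 0.08 ± 0.21 at 24 h (-0.24 when arrays were set to the median of all probe sets) and 0.45 ± 0.21 at 48 h, neither called. The 48 h difference was 0.11 with scaling on all probe sets, 0.30 without frozen 48 h replicate 1 and 0.28 without number 1 in every group. Residual spread between arrays of a group was 0.26 for NDI1 (log2 SD), against 0.49 for NDE1 and 0.50 for NDE2, and a median of 0.30 over all genes.

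**Figure D2:**
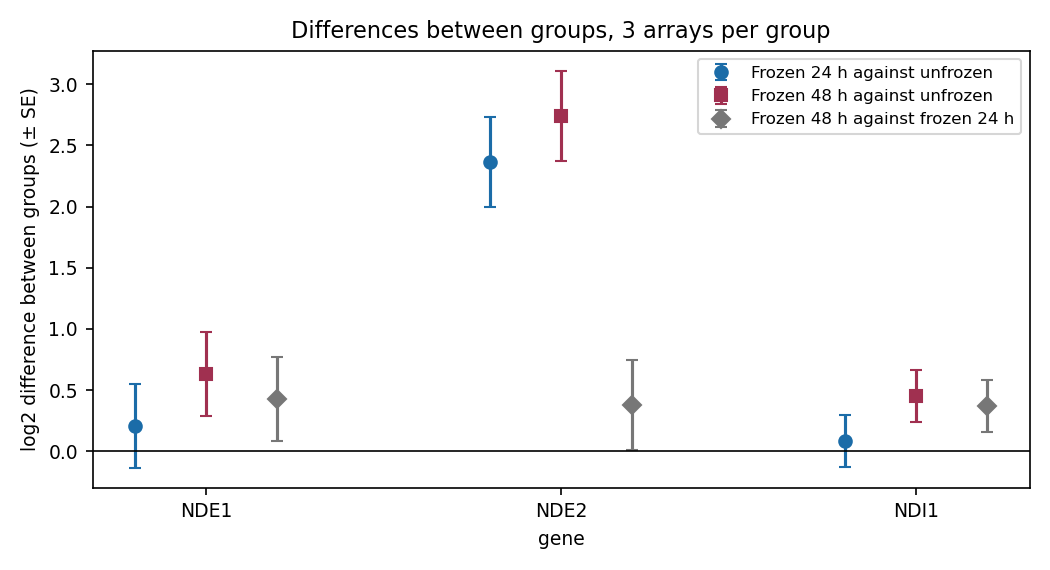
Log2 difference between group means with its SE (y axis) for NDE1, NDE2 and NDI1 (x axis), 3 arrays per group, with blue circles for 24 h against unfrozen, red squares for 48 h against unfrozen and grey diamonds for 48 h against 24 h. NDE2 stands at 2.36 and 2.74 against unfrozen cells, and the 48 h minus 24 h differences of all members lie between 0.37 and 0.42. The SEs treat the arrays as independent, without pairing by replicate number.

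Ratios within an array are the same under any scaling by 1 factor per array, though not under quantile normalization. The log2 ratio of NDE2 to NDE1, set to a mean of 0 over unfrozen arrays, ranged there from -0.19 to 0.18. It was 1.35, 2.06 and 3.06 in the 24 h replicates and 0.91, 2.34 and 3.09 in the 48 h replicates. NDE2 to NDI1 gave 1.89, 2.60 and 2.35 at 24 h and 1.33, 2.45 and 3.09 at 48 h, against -0.18 to 0.30 in unfrozen arrays. In all 6 frozen arrays the share of NDE2 in the signal of either pair was thus above all unfrozen ones. The ratio of NDE1 to NDI1 had a mean of 0.12 ± 0.72 (SD, n = 3) at 24 h and 0.18 ± 0.21 at 48 h, and its 24 h range ran from -0.71 to 0.54.

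A second day at -30 °C was compared with the first. The 48 h minus 24 h difference was 0.42 ± 0.34 for NDE1, 0.38 ± 0.37 for NDE2 and 0.37 ± 0.21 for NDI1 (log2, SE, n = 3 per group). These SEs treat the arrays as independent and leave out the pairing by replicate number described below. None of the members was called, as was the case for 0 of 5396 genes (0% by limma adjusted p, 22 genes at an unadjusted p under 0.05). Arrays of the same replicate number deviated together at 24 h and 48 h. Within numbers 1, 2 and 3 the difference was 0.39, 0.26 and 0.50 for NDE2, positive in each. It was 0.82, -0.02 and 0.47 for NDE1 and 0.95, 0.41 and -0.24 for NDI1, with mixed signs. Without frozen 24 h replicate 1 the NDE2 difference was 0.05, and without frozen 48 h replicate 1 it was 0.71. Both fits break the pair of replicate 1, the lowest NDE2 array of each frozen group. Leaving out an array or a number gave 0.10 to 0.72 for NDE1 and 0.08 to 0.68 for NDI1.

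The enzymes share the ubiquinone pool with other dehydrogenases, among them succinate dehydrogenase, the glycerol 3-phosphate dehydrogenase GUT2 and the proline dehydrogenase PUT1. Lactate dehydrogenases CYB2 and DLD1 hand their electrons to cytochrome c. Of the 10 such genes measured, limma called 1 higher at 24 h and 2 higher at 48 h, where over all genes 0.797% and 2.09% were called higher. It called 0 of them lower, against 0.204% and 0.815% of all genes. Their median differences were 0.11 and 0.39, where all genes had -0.02 and -0.03. This list and those below were chosen with earlier results of these data known. Their calls, set beside the shares of all genes, are therefore a description and give no support by themselves. PUT1 rose by 2.43 ± 0.37 at 24 h (SE, n = 3 per group, limma adjusted p = 0.0141) and by 2.63 ± 0.37 at 48 h (limma adjusted p = 0.00584). Its scaled log2 signals were 5.84, 6.15 and 6.33 in unfrozen replicates 1, 2 and 3, 8.13, 8.17 and 9.31 after 24 h, and 8.39, 8.36 and 9.46 after 48 h. All frozen PUT1 signals lay above the unfrozen ones, with replicate 3 the highest in each group. Over all genes, frozen arrays lay wholly above unfrozen ones for 12.2% at 24 h and 11.9% at 48 h. CYB2 rose by 0.96 ± 0.19 at 48 h (limma adjusted p = 0.0307) and stood at 0.69 ± 0.19 at 24 h (limma adjusted p = 0.171). The CYB2 call held in 11 of 24 alternative settings.

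Over all genes limma called 0.797% higher and 0.204% lower at 24 h, and 2.09% and 0.815% at 48 h. An unadjusted p under 0.05 was reached by 579 and 886 of the 5396 genes. A further 12 genes encode mitochondrial dehydrogenases, or parts of dehydrogenase complexes, that make NADH in the matrix. Of these, limma called 0 at 24 h (1 at an unadjusted p under 0.05) and 1 higher at 48 h. The latter was ALD4, the main mitochondrial aldehyde dehydrogenase, at 1.18 ± 0.25 (SE, n = 3 per group, limma adjusted p = 0.039) after 0.81 ± 0.25 at 24 h (limma adjusted p = 0.219). This call held in 10 of 24 alternative settings and in 2 of the 12 that left out an array or a replicate number. The medians of these 12 genes were -0.12 and -0.03. For 8 genes of shuttles that move the reducing equivalents of NADH, such as the glycerol 3-phosphate dehydrogenases GPD1 and GPD2, limma called 0 in both comparisons (0 and 1 unadjusted). Their medians were -0.06 and -0.01, and the smallest p belonged to the cytosolic malate dehydrogenase MDH2, at 0.41 ± 0.21 and 0.49 ± 0.21 (limma adjusted p = 0.53 and 0.27).

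For the lists that follow, the shares of all genes called were again 0.797% and 2.09% higher and 0.204% and 0.815% lower. At an unadjusted p under 0.05 there were 579 and 886 of the 5396 genes. Of 11 ubiquinone synthesis genes limma called 0 at either time (3 and 3 unadjusted), with medians of 0.06 and 0.05. The methyltransferase COQ3 had the smallest p at 24 h (0.44 ± 0.17, limma adjusted p = 0.363) and COQ11 at 48 h (-0.48 ± 0.16, limma adjusted p = 0.159). Of 20 genes of complex III, cytochrome c and complex IV limma called 0 (2 and 3 unadjusted), with medians of -0.20 and -0.15 and 6 positive differences at each time. COX5B, the hypoxic isoform of a complex IV subunit, had the smallest p, at -0.86 ± 0.25 and -0.99 ± 0.25 (limma adjusted p = 0.189 and 0.0719). The largest difference of this list went the other way, in the cytochrome c gene CYC7, at 1.26 ± 0.42 and 1.30 ± 0.42 (limma adjusted p = 0.263 and 0.150). COX5B passed in both comparisons without unfrozen replicate 3, at -1.14 and -1.28, but it was called in only 2 of 24 alternative settings at 24 h and 3 of 24 at 48 h. Among 17 genes of NAD synthesis, transport and phosphorylation limma called 0 (0 and 0 unadjusted), with medians of -0.04 and 0.04. The mitochondrial NADH kinase POS5 stood at -0.28 ± 0.16 at 24 h (limma adjusted p = 0.584) and BNA1, of NAD synthesis, at 0.34 ± 0.17 at 48 h (limma adjusted p = 0.366). The POS5 sign turned to 0.01 in the values as deposited, and BNA1 moved to -0.0021 when arrays were set to the median of all probe sets. AIF1, the yeast relative of mammalian apoptosis-inducing factor, differed by -0.15 ± 0.15 and -0.03 ± 0.15 (limma adjusted p = 0.789 and 0.941), signs that turned in the values as deposited (0.15 and 0.39).

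Of 13 regulators of respiratory and non-fermentable carbon genes limma called 1 higher at 24 h and 2 at 48 h. Over all genes 0.797% and 2.09% were called higher. Limma called 0 of the 13 lower, against 0.204% and 0.815% of all genes. An unadjusted p under 0.05 was reached by 5 and 4 of the 13, and by 579 and 886 of all 5396 genes. At 24 h these regulators included falls in HAP1 (-0.68 ± 0.24, SE, limma adjusted p = 0.301) and HAP4 (-0.91 ± 0.37, limma adjusted p = 0.389). At 48 h they included a fall in HAP1 (-0.62 ± 0.24, limma adjusted p = 0.241). The others, CAT8, ADR1 and SIP4, rose at both times. CAT8, the activator of gluconeogenic genes, rose by 2.38 ± 0.40 at 24 h (SE, n = 3 per group, limma adjusted p = 0.0228) and by 2.56 ± 0.40 at 48 h (limma adjusted p = 0.00913). Its scaled log2 signals were 2.94, 3.55 and 3.04 on unfrozen arrays, 5.18, 5.44 and 6.05 at 24 h and 5.00, 5.79 and 6.42 at 48 h. The CAT8 call held in 13 of 24 alternative settings at 24 h, 5 of them among the 12 that left out an array or a number, and in 20 of 24 at 48 h, and with 16 added to each intensity the differences were 1.23 and 1.36, not called. ADR1, the activator of alcohol dehydrogenase ADH2 and of peroxisomal genes, rose by 1.73 ± 0.26 at 48 h (limma adjusted p = 0.00752) and stood at 1.16 ± 0.26 at 24 h (limma adjusted p = 0.0735). The other 11 of the 13 regulators tested, among them the Hap2/3/4/5 genes of respiratory activation, were called in neither comparison. The median of all 13 was -0.19 at 24 h and -0.12 at 48 h.

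**Figure D3:**
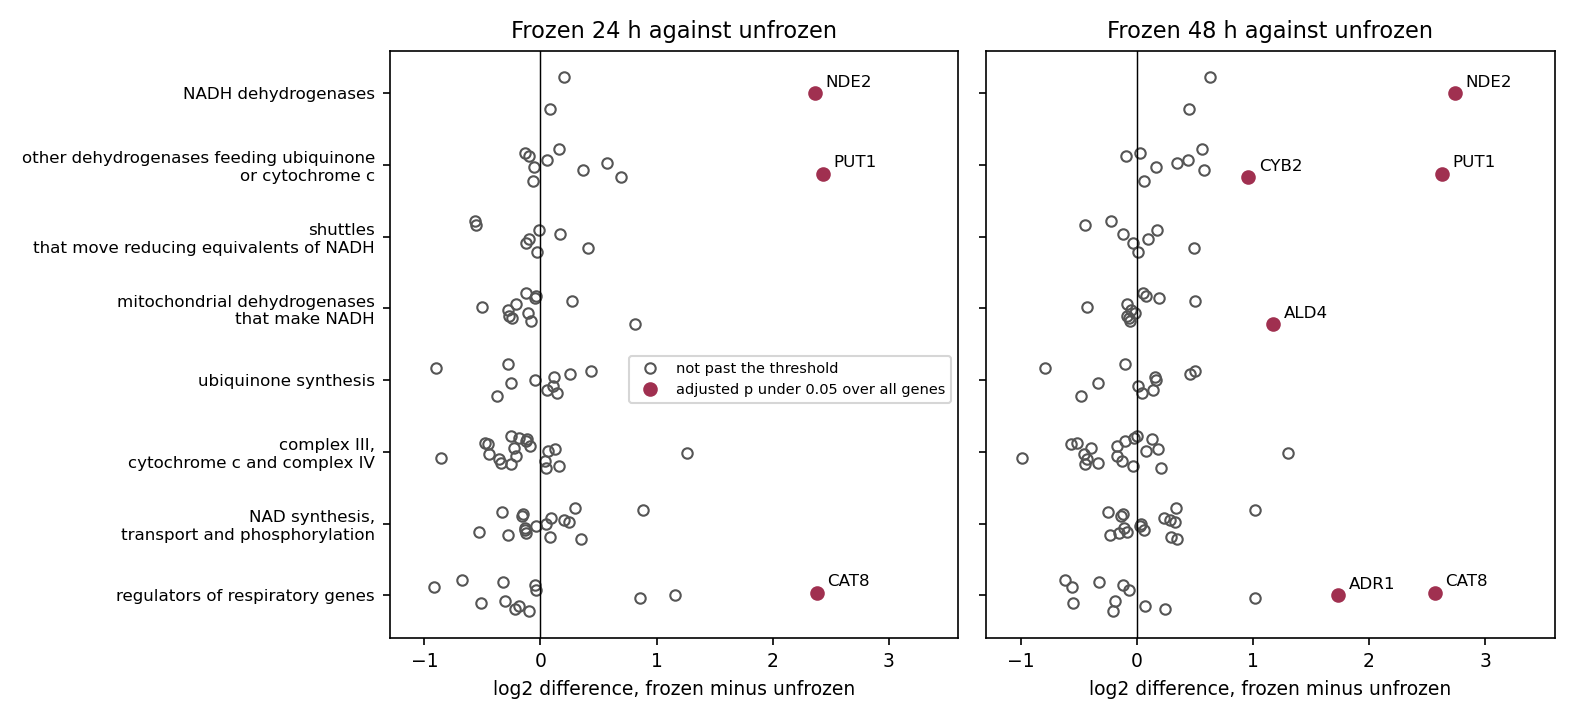
Log2 difference from unfrozen cells (x axis) at 24 h (left) and 48 h (right) for each measured gene of the NADH dehydrogenases and of 7 lists of related genes (rows), with filled red points for limma adjusted p under 0.05 over all 5396 genes and open points otherwise. Filled points at 24 h are NDE2, PUT1 and CAT8, joined at 48 h by CYB2, ALD4 and ADR1. NDE2 was picked with its rise known, and the lists with earlier results of these data known, so all filled points are a description only.

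The genes whose signals followed each member most closely were found by Pearson correlation over the 9 arrays. These values describe arrays that share 3 groups and one scaling, and the difference between frozen and unfrozen arrays enters them. NDE2 was most like JEN1, the lactate and pyruvate permease (r = 0.987), then the uncharacterised YMR085W (0.985), CAT8 (0.978), the peroxisomal thiolase POT1 (0.969) and the vacuolar amino acid transporter RTC2 (0.967). JEN1 signals were 6.47, 6.42 and 5.85 on unfrozen arrays, 8.11, 10.12 and 10.40 at 24 h and 9.25, 10.47 and 10.69 at 48 h. Like NDE2, JEN1 was lowest in replicate 1 of each frozen group. POT1 signals were 1.83, 1.64 and 2.31 on unfrozen arrays, near the background threshold of 2.21, and 4.60 to 6.81 on frozen ones. POT1 passed that threshold, set on the mean of all 9 arrays, only through its frozen signals, and its r rests on unfrozen values near background. JEN1, YMR085W and CAT8 stayed among the closest 5 under all 3 other scalings, POT1 under 2 of them and RTC2 under 1.

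NDE1 was most like FUN19 (r = 0.970), the cell wall protein genes PIR3 (0.968) and SPI1 (0.961), LAP2 (0.958) and the Snf1-activating kinase gene TOS3 (0.956). NDI1 was most like TSL1 (0.890) and TPS2 (0.889), which encode subunits of the trehalose synthase complex, followed by YBR225W (0.884), PPZ2 (0.863) and AXL2 (0.858). Over all 5396 genes, 579 at 24 h and 886 at 48 h had an unadjusted p under 0.05. Limma called 0.797% of them higher and 0.204% lower at 24 h, and 2.09% and 0.815% at 48 h. Of the 10 genes nearest to NDE1 and NDI1 limma called 0 in either frozen comparison (0 at 24 h and 5 at 48 h at an unadjusted p under 0.05). They were picked for following members that were not called themselves, so this count is a description only. These lists depended on scaling, since 1 to 3 of the 5 genes for NDE1 and 2 to 3 for NDI1 stayed under the other scalings. Among themselves the members gave r = 0.34 for NDE1 and NDE2, 0.63 for NDE1 and NDI1, and 0.46 for NDE2 and NDI1 (Spearman's rho 0.23, 0.43 and 0.52). In the ranking by likeness to NDE1, 2282 other genes stood above NDE2.

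**Figure D4:**
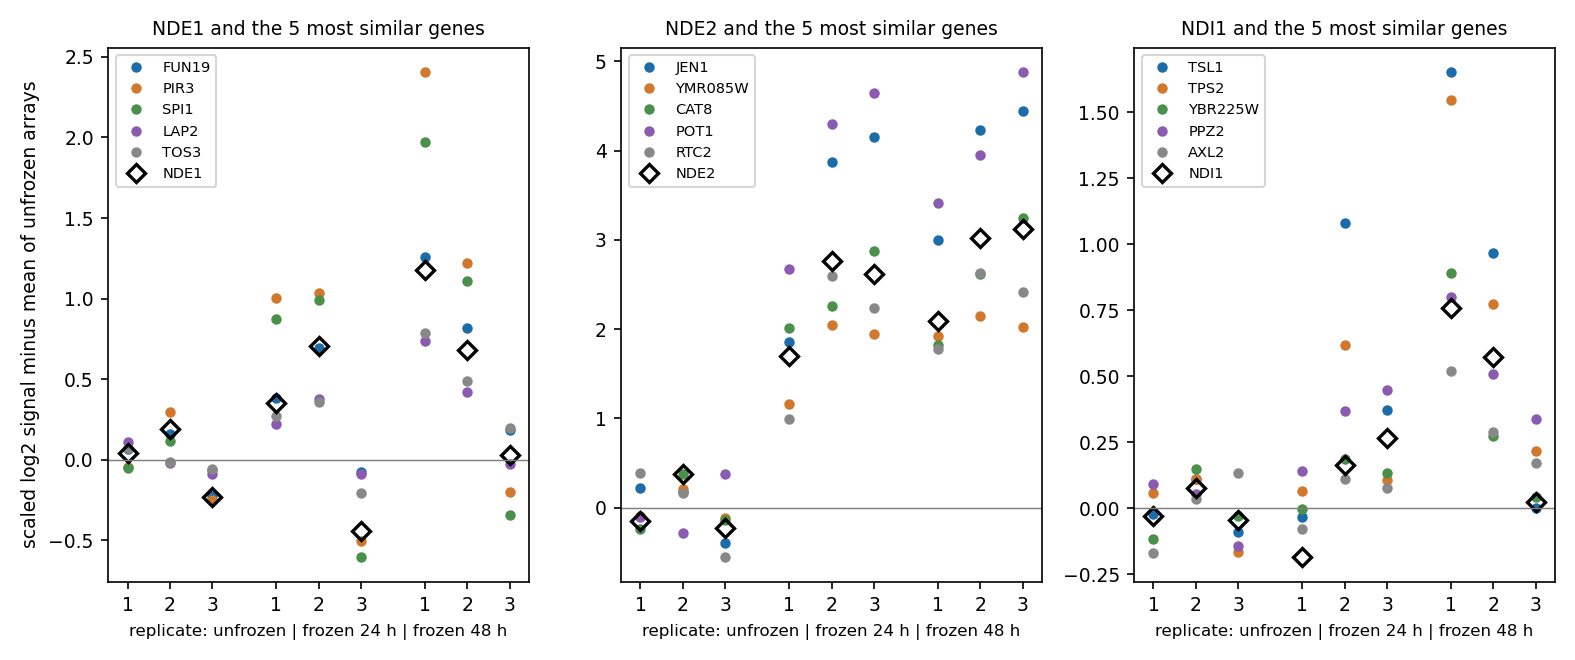
Scaled log2 signal minus the mean of the unfrozen arrays (y axis) on each array, numbered by replicate within unfrozen, 24 h and 48 h groups (x axis), for each member (open diamonds) and the 5 genes most correlated with it (coloured points). For NDE2 the 6 frozen arrays stand above all unfrozen ones, while for NDE1 both frozen groups drop at replicate 3.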

How the data were processed

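Per the labels, poly(A) RNA of 9 samples was hybridised to the Affymetrix Yeast Genome 2.0 array. The authors deposited 1 linear intensity for each probe set and array, made with GCOS per the submitters' processing notes. The labels also name GeneSpring 7.3.1 with scaling per chip and per gene, but the deposited intensity values have different medians and no per-gene ratio. All 9 columns were used. Symbols came from the platform annotation, updated through gene identifiers to RefSeq (assembly R64). No genome build is named in the files, so no coordinates are given.

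Intensities were taken to log2 and set to one median per array over 5498 S. cerevisiae probe sets. Probe sets with a mean above the 95th percentile of 1746 fission yeast probe sets were tested, the brightest per gene. Groups were compared with limma 3.58.1 in R 4.3.3 on all 9 arrays (moderation with a trend, two-sided tests, calls at a Benjamini-Hochberg adjusted p under 0.05), and the procedure was tested on simulated data. The number of arrays limits the precision.

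The members, the 7 gene lists and the tests were chosen with earlier results of these data known. Named are the members, AIF1, the called genes of each list or else the gene with the smallest p, and the 5 genes most correlated with each member. CYC7 is named for the largest difference of its list, and HAP1, HAP4 and SIP4 for an unadjusted p under 0.05 among the regulators. No alternatives are given for these genes. Alternatives were 3 other scalings, a pseudocount of 16, no filter or the 99th percentile, no trend, the replicate block, a fit of only the groups compared, averaged probe sets, ribosomal RNA as a covariate, and left-out arrays. Deviations of same-numbered 24 h and 48 h arrays from their group means correlated at 0.59, 0.39 and 0.79, so numbers were taken to pair them. With unfrozen arrays they ranged from -0.38 to 0.25 and did not pair.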

Additional observations from a re-analysis of the deposited data

How the results depend on the processing

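The NDE2 difference was positive in all 24 alternatives at both times. Its call held in 15 at 24 h and 22 at 48 h, counts that give no support because NDE2 was picked with its rise known. At 24 h the call was lost with scaling on all probe sets (2.04) and with 16 added to the intensity (1.50). It was also lost there with ribosomal RNA as a covariate (2.02), and at 48 h with the covariate (2.44). Leaving out arrays gave 2.12 to 2.69 at 24 h and 2.44 to 3.07 at 48 h. The 24 h call was lost without unfrozen replicate 1 (2.29) or 2 (2.55), frozen 24 h replicate 2 (2.16) or 3 (2.23), or number 2 (2.35) or 3 (2.12) in every group, and the 48 h call without number 2 (2.79). NDE1 and NDI1 were called in 0 of 24 alternatives at 24 h, with sign changes in 2 and 5, and at 48 h in 1 (NDE1) and 0.

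Over all genes limma called 54 at 24 h (43 higher) and 157 at 48 h (113 higher). The counts were 34 (29 higher) and 54 (46 higher) in the values as deposited, 118 and 84 with only the groups compared, and 0 and 0 with the covariate. With scaling on all probe sets, 19 of 64 calls at 24 h and 57 of 265 at 48 h were upward. Left-out arrays gave 0 to 126 and 0 to 232 (both 0 without number 2, with 211 and 403 at an unadjusted p under 0.05). With the replicate block the 24 h count was 113, and no member's call changed. For 48 h against 24 h limma called 0 in all 24 alternatives (4 to 374 unadjusted).

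Alternatives for the other named genes were added after the data were seen. PUT1 was called in 18 of 24 at 24 h and 22 at 48 h, CAT8 in 13 and 20, and ADR1 at 48 h in 20. AIF1 turned in the values as deposited (0.15 and 0.39) and with the covariate (0.0063 and 0.11), and its 48 h value ranged from -0.096 to 0.058 without single arrays or numbers. POS5 turned to 0.013 in the values as deposited and BNA1 to -0.0021 with scaling on all probe sets. The causes were not tested.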
